A study of Mus musculus with 11 samples.

Results

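The aminoacyl-tRNA synthetases are the enzymes that join each amino acid to its transfer RNA (tRNA). Their genes were taken by symbol, as the protein-coding genes named by an amino acid's letter followed by "ars", with or without a final 2, together with Farsa, Farsb, Tarsl2 and Eprs. By this rule 38 genes were found among the 32035 mouse genes with a matched transcript, or 37 genes without Eprs, whose symbol meets the letters of the rule only in a wider reading. The cytosolic enzymes numbered 21 genes and the mitochondrial enzymes, with symbols ending in 2, numbered 17 genes. Tarsl2 encodes a cytosolic enzyme, and Kars and Gars, which each encode the cytosolic and the mitochondrial form, were counted as cytosolic.

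Liver RNA of 11 female mice of conplastic strains, which share the C57BL/6J nuclear genome and differ in mitochondrial DNA, was sequenced. The 7 B6-mtALR mice (strain C57BL/6J-mtALR/J) carried the mutation m.4738C>A in mt-Nd2, and 3 of them were 5 months and 4 were 3 months of age. The 4 B6-mtBPL mice (strain C57BL/6J-mtBPL/J) carried m.11902T>C in mt-Nd5, and 2 were 3 months and 2 were 4 months of age. Both genes encode subunits of complex I of the respiratory chain, both strains carried a mutation, and no mouse with unmutated mitochondrial DNA was analysed here. No treatment is named for these mice, and the study compared the strains to find liver pathways linked with the mt-Nd2 mutation.

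Each synthetase recognises an amino acid and the tRNAs that decode it, and it uses ATP to charge the tRNA. Mammals keep separate sets for the ribosomes of the cytosol and for the small set of tRNAs encoded by mitochondrial DNA, and all of these enzymes are encoded in the nucleus. Class I and class II enzymes differ in the fold of the catalytic domain. In the cytosol, several synthetases and 3 scaffold proteins form the multisynthetase complex, and the genes of many cytosolic enzymes are known targets of ATF4, the transcription factor that is raised when amino acids run short.

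A promoter window, from 250 bases before to 50 after the start of transcription, was found in the RefSeq table (GRCm38.p6) for 27 of the 38 genes. The amino acid response element that ATF4 binds was searched on both strands as TGATGNAA. It was held by 5 of the 13 cytosolic promoters (Aars, Gars, Iars, Tars and Yars), by 0 of the 14 mitochondrial promoters and by 4.06% of 27025 promoters of the same length. In the windows that follow, each written 5′ to 3′ along its gene, the capitals mark the element, which appears as its reverse complement where it lies on the opposite strand. The windows are shown because all the matches lay in cytosolic promoters, of which 8 held none, and the difference between the compartments was not tested.
Aars, chr8:111033710-111033757, plus strand: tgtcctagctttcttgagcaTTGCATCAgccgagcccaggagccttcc
Aars, chr8:111033831-111033878, plus strand: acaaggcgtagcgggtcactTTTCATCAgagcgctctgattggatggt
Gars, chr6:55037951-55037998, plus strand: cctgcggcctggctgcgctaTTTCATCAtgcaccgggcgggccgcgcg
Iars, chr13:49682117-49682164, plus strand: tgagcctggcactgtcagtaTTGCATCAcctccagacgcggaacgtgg
Tars, chr15:11399646-11399693, minus strand: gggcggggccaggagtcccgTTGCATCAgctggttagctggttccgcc
Yars, chr4:129189886-129189933, plus strand: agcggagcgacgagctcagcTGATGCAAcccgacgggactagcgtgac

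The other searched motifs were found in both compartments. The NRF1 site, searched as GCGCANGCG, was held by 3 cytosolic promoters (Farsb, Kars and Tars), by 4 mitochondrial promoters (Iars2, Mars2, Vars2 and Wars2) and by 6.47% of all promoters. The ETS site, searched as CCGGAAG, was held by 4 promoters of each compartment and by 9.12% of all promoters. No match overlapped a match of another motif, and a match is a description of the letters only.

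The total estimated count ranged from 18145815 to 25074045 per mouse. Any 2 mice of a strain differed by more than sampling noise (chi-square divided by its degrees of freedom at least 20.7), and each mouse was counted as a sample. The summed level of 6 hepatocyte markers was 77600 to 94700 TPM (length-scaled transcript abundance, with the same total in each mouse), and 4 of the 5 pancreas markers (Ctrb1, Pnlip, Cpa1 and Cel) had no count in any mouse, while Cela3b had up to 0.162 TPM. The 5 endothelial markers summed to 123 to 128 TPM in the B6-mtALR mice of 3 months and to 144 to 169 TPM in the B6-mtBPL mice. In the B6-mtALR mice of 5 months they summed to 141 to 169 TPM, so by this sum not all B6-mtALR mice were lower. The single markers differed in this. Stab2 was at 3.81 to 7.14 TPM in the 7 B6-mtALR mice and at 7.22 to 17.9 TPM in the B6-mtBPL mice. Kdr was at 9.85 to 15.3 TPM and 16.8 to 25.8 TPM, while Pecam1, Lyve1 and Clec4g overlapped between the strains. Fewer cells of a type and less RNA per cell cannot be told apart in bulk liver.

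The cytosolic enzymes lay above most mitochondrial enzymes. TPM scales the counts by transcript length and so allows genes to be compared. Over the 11 mice, the mean levels of the 21 cytosolic enzymes ran from 7.00 to 79.7 TPM, with a median of 26.8 TPM. Those of the 16 mitochondrial enzymes other than Lars2 ran from 0.47 to 19.1 TPM, with a median of 11.8 TPM. Lars2, the mitochondrial leucine enzyme, stood outside both ranges at 462 ± 172 TPM (SD, n = 11).

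**Figure D1:**
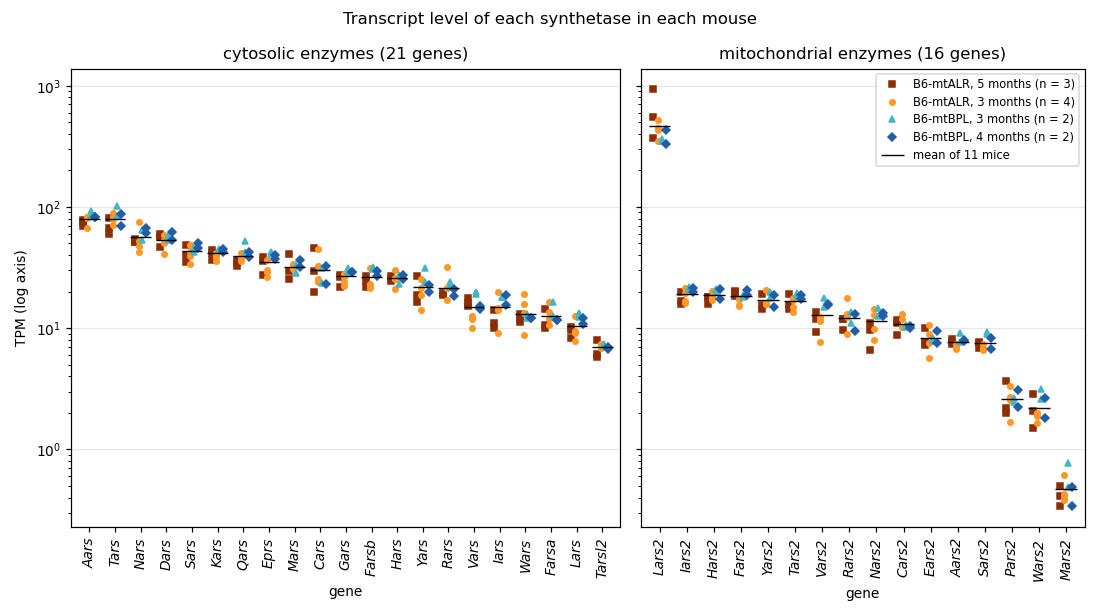
Level of 37 synthetases in TPM (log axis) in each of the 11 mice, with the 21 cytosolic genes on the left and 16 mitochondrial genes on the right, ordered by mean. Symbols mark strain and age and short lines mark the mean of the 11 mice. Lars2 lies above all other genes in every mouse, and Pars2, Wars2 and Mars2 lie below all others.

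The alanine enzyme Aars (chr8:111033144-111057664) had the highest mean level of the cytosolic set when all transcripts of a gene were counted. Of its 79.7 TPM, 44.3 TPM lay in the main coding transcript. A transcript of 426 bases with a retained intron held 30.7 TPM. By the main coding transcript alone, Aars lay below Tars, Nars and Dars. Aars was measured at 78.6, 69.3 and 75.1 TPM in the B6-mtALR mice of 5 months, at 83.0, 80.3, 82.6 and 67.3 TPM in those of 3 months, and at 93.1, 83.5, 81.8 and 81.8 TPM in the B6-mtBPL mice. The threonine enzyme Tars followed at 79.2 ± 12 TPM and was below Aars in only 5 of 11 mice, so the order of these neighbours was not set. Next in order were the asparagine enzyme Nars at 56.3 ± 9.37 TPM and the aspartate enzyme Dars at 53.8 ± 6.24 TPM, with Nars above Dars in 7 of 11 mice.

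Tarsl2, a second cytosolic threonine enzyme, had the lowest cytosolic level at 7.00 ± 0.602 TPM (SD, n = 11), far under its relative Tars. The phenylalanine enzyme of the cytosol is built from an alpha subunit, Farsa, and a beta subunit, Farsb. The RNA of these subunits was unequal, with Farsa at 12.7 ± 2.21 TPM and Farsb at 26.5 ± 4.0 TPM. Kars, for lysine, was at 41.4 ± 3.31 TPM and Gars, for glycine, at 26.8 ± 3.04 TPM. Eprs, a single protein that charges both glutamate and proline tRNAs, was at 35.1 ± 5.86 TPM.

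At the low end of the mitochondrial set, the methionine enzyme Mars2 (chr1:55237177-55248470) lay between 0.339 and 0.775 TPM, from 61 to 152 counts per mouse. The tryptophan enzyme Wars2 was at 2.20 ± 0.539 TPM and the proline enzyme Pars2 at 2.59 ± 0.579 TPM. The counts per mouse of Wars2 (76 to 150) and Pars2 (50 to 117) were like those of Mars2, whose annotated transcript is longer, at 11294 bases. Tarsl2, the next gene up, was above Pars2 in 11 of 11 mice. From Iars2 at 19.1 TPM down to Sars2 at 7.55 TPM, each of the other 13 mitochondrial genes was above its next lower neighbour among the 38 in only 5 to 8 of 11 mice, so neighbouring levels there did not differ beyond their spread.

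For 13 amino acids, 1 gene encoded the cytosolic and 1 the mitochondrial enzyme, which allowed the levels to be compared within each mouse. The cytosolic gene was above its mitochondrial counterpart in 11 of 11 mice for 9 of these amino acids, and the median of the mean ratios was 2.83. For methionine the ratio was widest, with Mars 72.4 ± 18.5 times above Mars2. This ratio rests in part on the length of the 1 annotated Mars2 transcript, 11294 bases, by which TPM divides. In counts scaled to library size only (CPM), Mars was at 44.1 to 64.4 and Mars2 at 2.75 to 5.82 over the 11 mice. For tryptophan, Wars was 6.16 ± 1.74 times above Wars2 (SD, n = 11). The order was turned round in 11 of 11 mice for isoleucine, with Iars at 0.767 ± 0.114 times Iars2, and for leucine, with Lars at 0.0253 ± 0.00909 times Lars2. The valine pair (Vars above Vars2 in 7 of 11 mice) and the tyrosine pair (Yars above Yars2 in 10 of 11 mice) had no order that held in every mouse.

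Lars2 was 5.8 times above Aars, the next highest synthetase, in mean TPM of all transcripts. It was measured at 549, 932 and 372 TPM in the B6-mtALR mice of 5 months and at 451, 519, 433 and 353 TPM in those of 3 months. The B6-mtBPL mice held 348, 361, 434 and 329 TPM. B6-mtALR mouse 2 stood apart at 932 TPM, the highest value of any synthetase, and the other 10 mice lay between 329 and 549 TPM. Of the summed TPM of the mitochondrial set, Lars2 made up 62.6% to 85.0% per mouse.

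A search of the transcript sequences showed that 26 of the 3864 stretches of 31 bases in the Lars2 transcript also occur in AA474408, an annotated gene on chromosome 7 that was picked out after its values were seen. The shared runs lie in the last of the 21 exons of Lars2, inside the 3′ untranslated region (GRCm38, chr9:123461676-123462664). A piece of the first run is shown because it is what both transcripts hold:
Lars2 and AA474408, chr9:123461947-123461976, plus strand: gaaaagttaccacagggataactggcttgt
These letters are known from the conserved core of the large-subunit ribosomal RNA, and no ribosomal RNA sequence was used here to compute the match. The libraries were made with oligo-dT beads, which enrich RNA with a poly-A tail.

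AA474408 was measured at 79.9, 135 and 51 TPM in the B6-mtALR mice of 5 months, at 60.4, 68.8, 55.3 and 48.4 TPM in those of 3 months, and at 45.5, 42.7, 59.5 and 46.5 TPM in the B6-mtBPL mice. The mouse with the highest Lars2 therefore had the highest AA474408. Lars2 varied 2.83-fold and AA474408 varied 3.16-fold over the 11 mice, while their ratio stayed between 6.88 and 8.46, at 7.43 ± 0.451 (SD, n = 11). The part of reads from the shared runs, or from other RNA holding them, in the level of Lars2 was not tested.

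**Figure D2:**
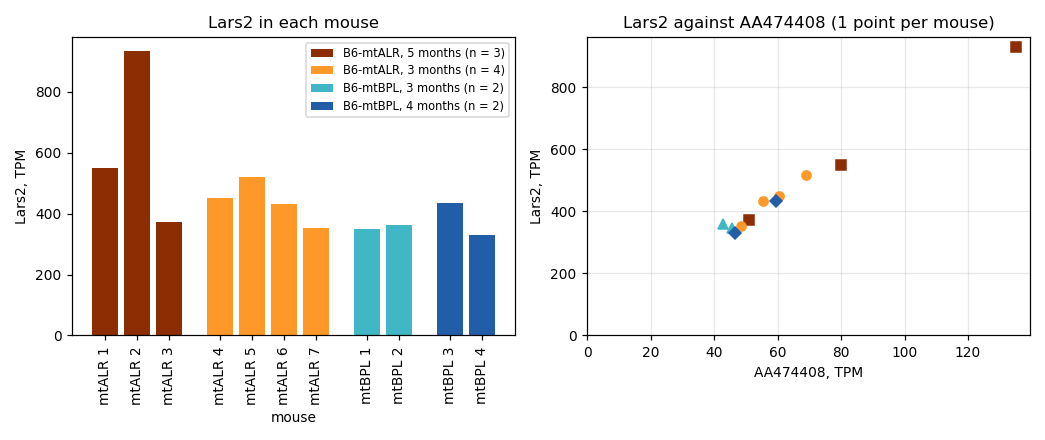
Left, Lars2 level in TPM in each mouse, coloured by strain and age. Right, Lars2 against AA474408, both in TPM, with 1 point per mouse in the same colours; B6-mtALR mouse 2 lies at 932 TPM of Lars2 and 135 TPM of AA474408, and the ratio of both genes stays between 6.88 and 8.46.

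Most members shared little sequence with other genes. Under 5% of the 31-base stretches were shared in 33 of the 38 genes, and the exceptions were Iars2 (22.5%, almost all with the overlapping Rab3gap2), Cars2 (19.7%, with the overlapping Naxd), Iars (14.7%, almost all with the gene model Gm4849), Farsb (8.46%, almost all with the overlapping Sgpp2) and Hars (8.42%, with Hars2). Hars and Hars2, the histidine enzymes, overlap on chromosome 18 on opposite strands. The values of these 5 genes are therefore less certain, and the strand setting of the counting is not given in the sources used here.

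Not all of the RNA counted to a synthetase gene was annotated as coding. Coding transcripts held a median of 95.5% of the TPM of the cytosolic genes and of 89.3% of the mitochondrial genes. The mean coding share was under 50% in 1 cytosolic gene and 2 mitochondrial genes. The cytosolic one, the glutamine enzyme Qars, had 40.0% ± 6.51 (SD, n = 11) in coding transcripts and 44.5% in transcripts annotated for nonsense-mediated decay. The mitochondrial valine enzyme Vars2 had 41.2% ± 12.6 (SD, n = 11) in coding transcripts. The ratios between the compartments given above counted all transcripts. In Aars, 42.7% of the TPM lay in transcripts with a retained intron. Of the 28 genes whose coding share varied, the share differed between the 4 B6-mtALR mice of 3 months and the 4 B6-mtBPL mice at an unadjusted p under 0.05 in 1. No difference passed adjustment over these 28 tests (smallest adjusted p = 0.6, exact permutation test, two-sided). The smallest p that 4 against 4 mice allow is 0.0286, so a single gene could not pass this adjustment. The result therefore does not show that the coding shares were alike.

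Between the strains, no synthetase gene passed the test. The 4 B6-mtALR mice of 3 months were compared with the 4 B6-mtBPL mice in a model with age and strain, and since the age term comes from the B6-mtBPL mice alone, the fold change sets the B6-mtALR mice against the 2 B6-mtBPL mice of 3 months. Of the 13380 genes tested, 318 (2.38%) had an adjusted p under 0.05 in edgeR's quasi-likelihood test, and 0 of the 38 synthetases were among them. All 38 genes passed the filter on low counts. The count over all genes depended on single mice, from 0 without B6-mtBPL mouse 2 to 572 without B6-mtALR mouse 6, and that of the synthetases was 0 in each of these fits. At an unadjusted p under 0.05 there were 3 synthetases (Lars2, Cars2 and Vars) against 21.3% of all genes, and DESeq2 called 1 synthetase, Lars2 (2.63% of the 38 genes), against 7.81% of all genes.

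The differences were small in both compartments. The median log2 fold change, B6-mtALR over B6-mtBPL, was 0.05 over the 21 cytosolic genes and 0.05 over the 17 mitochondrial genes, beside 0.00 over all genes tested. A positive value was found in 14 cytosolic and 11 mitochondrial genes. The median size of the difference, without its sign, was 0.10 in log2 over the 38 genes and 0.23 over all genes. The 95% interval excluded a 2-fold change in either direction for all 38 genes and a 1.5-fold change for 29 of them. The 19 class I enzymes had a median of 0.07 and the 19 class II enzymes one of 0.05. Eprs, which charges both glutamate and proline tRNAs, was counted in class I only. Over the alternatives run, the medians of the compartments lay between -0.041 and 0.167, and their signs were not stable.

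**Figure D3:**
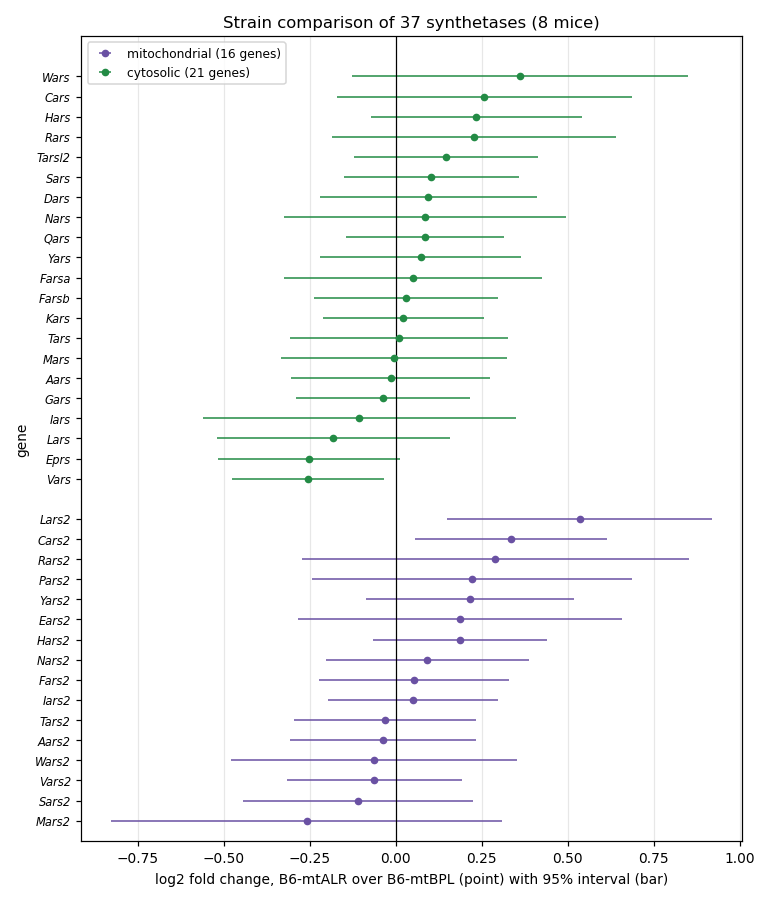
log2 fold change of 37 synthetases between B6-mtALR and B6-mtBPL mice of 3 to 4 months (points), with the 95% interval from edgeR (bars), cytosolic genes above and mitochondrial genes below. Only the intervals of Lars2, Cars2 and Vars leave out 0, and none of the 37 genes passed adjustment over all genes tested.

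The values that follow are CPM (counts scaled to library size, with TMM factors), as used in the test and not divided by length. Lars2 was at 1370, 1560, 1160 and 1050 CPM in the B6-mtALR mice of 3 months and at 867, 902, 1170 and 929 CPM in the B6-mtBPL mice. The groups overlapped, since B6-mtBPL mouse 3 was above the lowest pair of B6-mtALR mice. The log2 fold change was 0.54 (SE 0.17, 95% interval 0.15 to 0.92), with adjusted p = 0.118 in edgeR and adjusted p = 0.0337 in DESeq2. The adjusted p over all alternatives ran from 0.0337 to 0.879, and the fold change stayed positive in each, between 0.41 and 0.87. AA474408 differed by 0.63 (SE 0.17, adjusted p = 0.0791 in edgeR), in the same direction as Lars2.

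Cars2, the mitochondrial cysteine enzyme (chr8:11513977-11550783), was at 14.1, 15.9, 15.8 and 13.8 CPM in the B6-mtALR mice of 3 months and at 11.5, 12, 12.2 and 13.1 CPM in the B6-mtBPL mice. All of these B6-mtALR values were above all B6-mtBPL values. The B6-mtALR mice of 5 months, outside this comparison, were at 14.2, 15.7 and 11.1 CPM, the last below every B6-mtBPL mouse. The log2 fold change was 0.34 (SE 0.13, edgeR adjusted p = 0.161), and it ran from 0.10 to 0.38 over the alternatives, lowest with the replicate block and the length trend taken out. Naxd, the gene that shares sequence with Cars2, differed by 0.14 (SE 0.13, edgeR adjusted p = 0.555).

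The cytosolic valine enzyme Vars (chr17:35000987-35016322) had narrow groups. Vars was at 29.6, 30, 30.7 and 30.1 CPM in the B6-mtALR mice of 3 months and at 35.7, 35.9, 34.7 and 37.2 CPM in the B6-mtBPL mice, without overlap. The log2 fold change was -0.26 (SE 0.10, edgeR adjusted p = 0.177), and with each mouse left out in turn it stayed between -0.27 and -0.24. It was -0.07 with protein-coding transcripts only (edgeR unadjusted p = 0.601), -0.17 with the trend on transcript length taken out and -0.15 with the replicate block (-0.07 with both). The B6-mtALR mice of 5 months, which were not in this comparison, were at 31.5, 36.3 and 32.2 CPM, partly inside the range of the B6-mtBPL mice.

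Eprs (chr1:185363044-185428360) was at 115, 101, 124 and 109 CPM in the B6-mtALR mice of 3 months and at 136, 131, 127 and 145 CPM in the B6-mtBPL mice, again without overlap. Its log2 fold change was -0.25 (SE 0.12, edgeR adjusted p = 0.259), and -0.03 (edgeR unadjusted p = 0.771) with the trend on transcript length taken out. In the B6-mtALR mice of 5 months Eprs was at 132, 106 and 139 CPM, which spans both groups.

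For single genes, groups without overlap give an exact permutation p of 0.0286 (two-sided, unadjusted), the smallest that 4 against 4 mice allow. All 4 B6-mtALR mice were above all B6-mtBPL mice in 3 synthetases (Cars2, Hars2 and Yars2), which is 7.89% of the 38 genes against 5.68% of all genes. They were below in 2 synthetases (Eprs and Vars), or 5.26% against 6.42% of all genes. These shares lay near those of all genes. With the 5-month mice added (7 against 4 mice, smallest possible p = 0.00303), 3 genes had an unadjusted permutation p under 0.05: Yars2 (0.0152), Vars (0.0182) and Lars2 (0.0455). They make up 7.89% of the 38 genes, against 17.2% of all genes.

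The tryptophan enzymes were of interest because the study measured tryptophan in skin fibroblast lines of these strains, not in these livers. The cytosolic Wars (chr12:108860030-108894174) had the largest increase of a cytosolic gene, but its values were spread, at 21.4, 26.4, 26.9 and 14.8 CPM in the B6-mtALR mice of 3 months and at 18, 16.7, 16.6 and 18.1 CPM in the B6-mtBPL mice. B6-mtALR mouse 7 was the lowest of all 8 mice while the other 3 were above every B6-mtBPL mouse. The log2 fold change was 0.36 (SE 0.22, 95% interval -0.13 to 0.85, edgeR adjusted p = 0.364). It was 0.52 without B6-mtALR mouse 7 and 0.18 with the replicate block and the length trend taken out. The mitochondrial Wars2 (chr3:99141068-99239186) was at 4.30 to 5.68 CPM in the B6-mtALR mice of 3 months and at 4.67 to 5.95 CPM in the B6-mtBPL mice, with a log2 fold change of -0.06 (SE 0.19, 95% interval -0.48 to 0.35, edgeR adjusted p = 0.874).

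For the genes that serve both compartments the intervals were narrow. Kars (chr8:111993443-112011323) was at 54.4 to 60.5 CPM in the B6-mtALR mice of 3 months and at 56.1 to 64.3 CPM in the B6-mtBPL mice, and its log2 fold change of 0.02 (SE 0.10) had a 95% interval of -0.21 to 0.26. For Gars (chr6:55038007-55079500) the fold change was -0.04 (SE 0.11), with an interval of -0.29 to 0.22.

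The subunits Farsa and Farsb differed by 0.05 (SE 0.17) and 0.03 (SE 0.12). Farsa was at 0.33 (edgeR unadjusted p = 0.0603) with protein-coding transcripts only, at 0.24 without B6-mtBPL mouse 1 and at -0.12 without B6-mtBPL mouse 2. The threonine enzymes Tars and Tarsl2 differed by 0.01 (SE 0.14) and 0.15 (SE 0.12), and Tars was at 0.17 and -0.13 without B6-mtBPL mouse 1 and 2. Hars, the cytosolic histidine enzyme, differed by 0.23 (SE 0.14, edgeR adjusted p = 0.353), with overlapping groups, and was at 0.38 without B6-mtBPL mouse 1 and at 0.10 without B6-mtBPL mouse 2. Aars, level with Tars at the top of the cytosolic set when all transcripts were counted, was at -0.01 (SE 0.13). Without B6-mtBPL mouse 1 and 2, Aars was at 0.13 and -0.15. The largest decrease of a mitochondrial gene was that of Mars2, at -0.26 (SE 0.25), with 5.82 CPM in B6-mtBPL mouse 1 and 2.75 to 4.95 CPM in the other 7 mice. Mars2 was at 0.11 without that mouse and at -0.55 without B6-mtBPL mouse 2, so its direction rests on 1 library.

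The sign of the fold change went with the length of the transcript. The genes tested were split by length into 3 equal classes. Among the 11 synthetases of the longest class (3091 bases or more), 3 had a positive fold change, and their median was -0.06. The 7 genes in the shortest class and the 20 in the middle class had medians of 0.10 and 0.08. Spearman's rho between fold change and length was -0.53 over the 38 genes and -0.47 over all 13380 genes, as a description across genes, which share the same libraries. Vars (3121 bases) and Eprs (4870 bases) are among the longer members, and Cars2, Hars2 and Yars2 lie between 1428 and 2039 bases. Lars2, at 3881 bases, lay apart from this order.

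**Figure D4:**
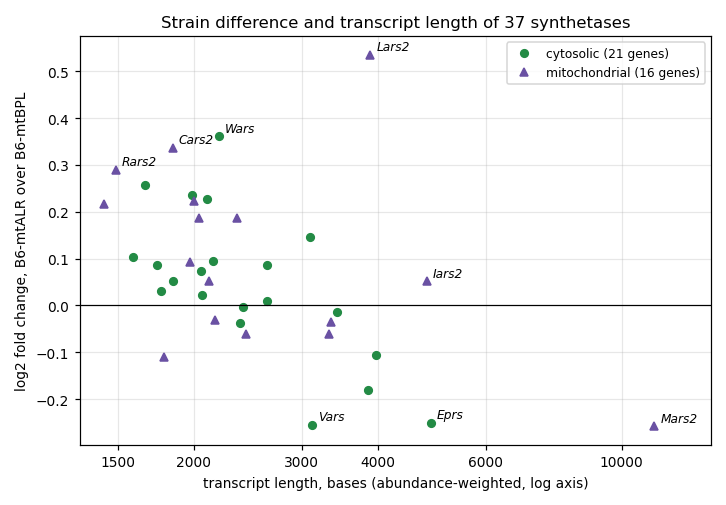
log2 fold change between the strains against transcript length in bases (log axis) for 37 synthetases, 1 point per gene. Longer genes such as Eprs, Vars and Mars2 lie under 0 and shorter ones such as Cars2 and Rars2 above it (rho -0.53 over all 38 genes), while Lars2 lies apart at 0.54.

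The trend on length also differed among mice, taken as the slope on length of each mouse's difference from the mean of the mice compared. This slope was -0.217 ± 0.236 in the 4 B6-mtALR mice of 3 months and 0.217 ± 0.179 in the B6-mtBPL mice (SD; exact permutation test, two-sided, p = 0.0571). Slopes relative to a shared mean cancel over the groups, so the opposite signs follow from the calculation. They do not show that expression falls with length in 1 strain and rises in the other. With this trend taken out of each mouse, rho over the 38 genes was 0.10 and the genes called among all 13380 fell from 318 to 11, with 0 synthetases among them. In that fit Mars2 turned to 0.24, and Lars2 was at 0.70 (edgeR adjusted p = 0.169).

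Within single mice, the cytosolic set ran over a wider range than the mitochondrial set. As the median over genes of the difference from each gene's mean of 11 mice, in log2 CPM, the cytosolic enzymes ran from -0.16 in B6-mtALR mouse 7 to 0.14 in B6-mtBPL mouse 4. The mitochondrial enzymes ran from -0.12 to 0.07. B6-mtALR mouse 6 and B6-mtBPL mouse 4 were high for the cytosolic set, with 18 of 21 genes above their own mean in each, while B6-mtALR mouse 7 and B6-mtBPL mouse 2 had 4 of 21 above it. High and low mice were thus found in both strains. The summed cytosolic TPM was 3.83 ± 0.190 times the summed mitochondrial TPM without Lars2 in the B6-mtALR mice of 3 months (SD, n = 4) and 3.80 ± 0.274 times in the B6-mtBPL mice (SD, n = 4).

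**Figure D5:**
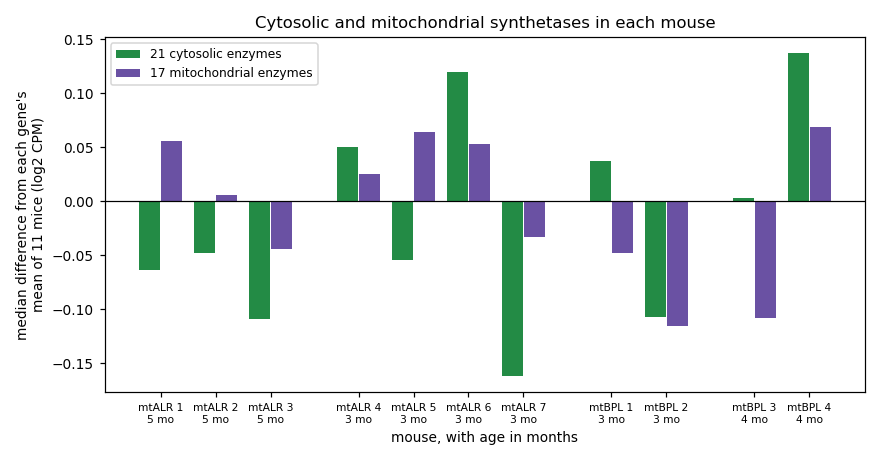
Median over the 21 cytosolic and the 17 mitochondrial enzymes of the difference from each gene's mean of 11 mice, in log2 CPM, for each mouse. The cytosolic bars run from -0.16 in B6-mtALR mouse 7 to 0.14 in B6-mtBPL mouse 4, and high and low mice occur in both strains.

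In the median, the synthetases varied less from mouse to mouse than other genes. The median coefficient of variation of TPM over the 11 mice was 15.1% for the cytosolic genes and 13.3% for the mitochondrial genes, beside 21.1% for all genes tested. Genes of like level were not set beside the synthetases, so the part of level in this difference was not tested. Kars was the steadiest at 8.01%. Among cytosolic genes, Cars, for cysteine, varied most (28.4%), from 19.8 to 45.6 TPM, and Lars2 varied most of all (37.2%).

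Age was compared within each strain. Both age comparisons share mice with the strain comparison, so the 3 are not independent. In the 7 B6-mtALR mice, 5 against 3 months, 106 of 13375 genes (0.793%) passed edgeR's test and 0 of the 38 synthetases did, with 0 at an unadjusted p under 0.05 (10.1% of all genes) and 0 in DESeq2. The median log2 fold change was -0.04 for the cytosolic and 0.02 for the mitochondrial genes, beside 0.01 for all genes. Lars2 had the largest difference, 0.51 (SE 0.29, edgeR adjusted p = 0.614), and without B6-mtALR mouse 2 it was 0.03. Vars and Eprs were at 0.16 (edgeR adjusted p = 0.723) and 0.17 (edgeR adjusted p = 0.752).

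In the B6-mtBPL mice, 2 of 4 months against 2 of 3 months, 16 of 13623 genes (0.117%) passed edgeR's test. Of the synthetases, 0 did, 0 had an unadjusted p under 0.05 (10.7% of all genes) and 0 were called by DESeq2. The medians were 0.07 for the cytosolic and 0.04 for the mitochondrial genes, beside 0.01 for all genes. The widest difference was that of Mars2, -0.47 (95% interval -1.21 to 0.27).

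The partners of the synthetases were read from lists of related genes. Of all genes, 2.38% passed the test between the strains, 0.793% with age in B6-mtALR mice and 0.117% with age in B6-mtBPL mice. Of the 3 scaffold proteins of the multisynthetase complex, 0 passed the test in any of the 3 comparisons. Aimp1 was at 33.3, 35.0, 33.3 and 27.4 CPM in the B6-mtALR mice of 3 months and at 24.3, 19.5, 26.2 and 29.6 CPM in the B6-mtBPL mice, with a log2 fold change of 0.55 (SE 0.15, edgeR adjusted p = 0.0787). The groups overlapped through B6-mtALR mouse 7 and B6-mtBPL mouse 4. At 1071 bases, Aimp1 is in the shortest class of genes, whose median over all genes was 0.175. The other scaffold genes, Aimp2 and Eef1e1, were at 0.06 (SE 0.22) and 0.31 (SE 0.20). The 8 enzymes of the complex had a median of 0.01 and 4 positive values.

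Mitochondria have no glutaminyl-tRNA synthetase of their own and convert glutamate on the tRNA by an amidotransferase made of Gatb, Gatc and Qrsl1, while Mtfmt adds the formyl group to the initiator tRNA. Of the 10 mitochondrial charging partners listed, 0 passed the test in any comparison, and the median between the strains was 0.20. Qrsl1 was at 0.51 (SE 0.20, edgeR adjusted p = 0.185), Gatb at 0.26 (SE 0.13), Mtfmt at 0.17 (SE 0.15) and Gatc at 0.06 (SE 0.13). In the B6-mtALR mice of 5 months, outside this comparison, Qrsl1 was at 2.78, 2.73 and 3.93 CPM. These values lay inside the range of the B6-mtBPL mice, 2.63 to 4.02 CPM. The 10 mitochondrial translation factors all had positive values, with a median of 0.14 and 0 calls, against 49.6% positive values over all genes. These factors have transcripts of 1094 (Tsfm) to 3017 bases (Gfm2), all below the longest class, and the part of length in their values was not tested. The 6 genes for selenocysteine and proofreading had a median of 0.22 and 0 calls.

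Of the 30 genes of the amino acid response, 27 were tested between the strains and 0 were called, with 2 at an unadjusted p under 0.05 and a median of 0.21. Over all genes tested, 2.38% were called and 21.3% had an unadjusted p under 0.05 in edgeR. Atf4 itself was at 114, 102, 104 and 82.5 CPM in the B6-mtALR mice of 3 months and at 90.7, 65.1, 68.1 and 54.9 CPM in the B6-mtBPL mice, with B6-mtBPL mouse 1 inside the B6-mtALR range. Its log2 fold change was 0.36 (SE 0.18, edgeR adjusted p = 0.273). The B6-mtALR mice of 5 months, outside this comparison, were at 65.5, 80.0 and 55.0 CPM, inside the range of the B6-mtBPL mice. Between 5 and 3 months in B6-mtALR mice, Atf4 differed by -0.58 (SE 0.16, edgeR adjusted p = 0.191). Asns, the asparagine synthetase and a usual target of ATF4, lay between 0.227 and 0.711 TPM and did not pass the filter in this comparison. The 5 synthetases whose promoters hold the response element had strain differences between -0.11 and 0.07. Their age differences lay between -0.225 and -0.001 in B6-mtALR mice and between -0.120 and 0.096 in B6-mtBPL mice.

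Some markers of several cell types differed between the strains. Of the 5 endothelial markers, 2 were lower in B6-mtALR mice (Stab2 and Kdr), at an adjusted p under 0.05 in edgeR. So were 2 of the 5 stellate cell markers (Pdgfrb and Reln) and 1 of the 6 hepatocyte markers (Cps1). Of all genes tested, 2.38% were called. Positive values, with 0 calls, were found in 2 endothelial (Lyve1 and Clec4g), 1 stellate cell (Lrat) and 4 hepatocyte markers. The called markers have transcripts of 4192 (Reln) to 8228 bases (Stab2), in the longest class of genes, whose median was -0.202. The part of these marker differences in the values of the synthetases was not tested.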

How the data were processed

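Liver RNA of 11 mice was sequenced by the authors as single-end reads of 75 bases on an Illumina HiSeq 2500. The submitters' processing notes name kallisto 0.44.0 and mm10, and the release of the transcripts and the strand setting are not given in the sources used here. The authors deposited for each transcript an estimated count, not normalised, and a TPM value, scaled by effective length and library. The strain fields were used for the groups, although the text on RNA extraction lists different strains, among them mtAKR. No batch or date is labelled.

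Transcripts were joined to genes by GENCODE M21, which matched 95301 of 96626 (98.6%, and at least 99.6% of the counts of each mouse). Estimated counts were summed per gene and rounded. Between groups, edgeR 4.0.16 in R 4.3.3 was applied (filterByExpr at its settings of 10 counts and 15 in total, TMM, quasi-likelihood test), with Benjamini-Hochberg adjustment over all genes tested and a threshold of 0.05. The strain comparison held the 8 mice of 3 to 4 months with age and strain as terms, and each age comparison held the mice of 1 strain. Fold changes are in log2, standard errors come from the quasi-likelihood statistic, and 95% intervals use its degrees of freedom. TPM was used for levels and in no model. Single values were compared by exact permutation of log2 CPM (prior count 0.5). The alternatives were DESeq2 1.42.0, other scalings, filters, covariates and samples, the length trend (lowess, span 0.3) and mice left out. The test was tried on simulated counts.

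Genes given by full values were those past the threshold, the 6 with the smallest unadjusted p between the strains, the highest, lowest, most increased and most decreased of each compartment, and Wars, Wars2, Kars, Gars, Eprs, Farsa, Farsb, Tars and Tarsl2. Of the lists, genes past the threshold and Atf4, Asns, Aimp1, Aimp2, Eef1e1, Gatb, Gatc, Qrsl1 and Mtfmt are named. Others are given by count, range or level. Members and lists were chosen with earlier results of these data known. Replicates are separate mice. Intervals cover the spread between these mice only. Of the 38 genes, 1 is counted in the summaries and not reported here by name. The sleuth and GAGE steps of the study were not used here.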

Additional observations from a re-analysis of the deposited data

Results flagged for a closer look

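In groups of 4 mice, 2 values of 37 synthetases stood apart from the rest of their group by Dixon's ratio (above 0.829), out of 74 groups looked at, and chance flags about 1 in 20. Aars was low in B6-mtALR mouse 7, at 176 CPM against 211 to 214 CPM in the other 3-month mice of the strain. Farsa was high in B6-mtBPL mouse 1, at 18.3 CPM against 14.0 to 14.7 CPM.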

How the results depend on the processing

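The count of synthetases past the threshold was 0 under every alternative in the 3 comparisons except DESeq2 between the strains, which called 1, Lars2 (log2 fold change 0.54). The count over all genes between the strains was less stable: 318 in the main fit, 1045 with DESeq2, 198 without the age term, 14 with all 11 mice and age, 0 with all 11 mice without age and 0 to 572 with 1 mouse left out (0 without B6-mtBPL mouse 2, 2 without B6-mtBPL mouse 1, 7 without B6-mtALR mouse 5, 8 without B6-mtALR mouse 4, 572 without B6-mtALR mouse 6). Between the ages it was 302 with DESeq2 and 38 to 120 with 1 mouse left out in B6-mtALR mice, and 187 and 7 to 339 in B6-mtBPL mice. The median of the cytosolic enzymes (0.05) ran from -0.041 to 0.167 with 1 mouse left out (0.167 without B6-mtBPL mouse 1) and that of the mitochondrial enzymes from 0.05 to 0.10. With protein-coding transcripts only, an alternative added after the data were seen, the latter was 0.14. With 7 against 4 mice, 3 synthetases in place of 5 had a permutation p under 0.05. Replicate numbers are shared by both strains, but same-numbered mice did not deviate together (correlations -0.256, -0.192, 0.114 and -0.123), and with the replicate block the medians were -0.01 and 0.04, with 0 synthetases and 0 genes called in all. A sign was counted as turned only where the value exceeded its standard error in either fit. Of the 15 genes given in full, 4 turned. Mars2 was 0.24 with the length trend taken out, 0.36 with the replicate block as well, 0.36 without the age term as well, 0.37 with all 11 mice as well and -0.552 to 0.11 with 1 mouse left out (0.11 without B6-mtBPL mouse 1). Eprs was 0.069 with the replicate block and the length trend. With the length trend taken out, Aars was 0.13 without age and 0.10 with all 11 mice, and Farsb was -0.10 in both. The cause was not tested. The count of Mars2 was 61 to 152 per mouse.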
